A study of Hymenochirus boettgeri with 8 samples.

Results

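A set of 54 assembly genes of Hymenochirus boettgeri, the dwarf clawed frog, was close to absent from eggs and 8-cell embryos and abundant in both NF stage 26 embryos and swimming tadpoles. They were chosen from 145306 assembly genes by their own expression values. A gene total had to stay below 1 TPM in all 4 egg and 8-cell libraries, here called early, and to reach at least 50 TPM in all 4 stage 26 and tadpole libraries, here called late. The tadpole mean also had to lie between 0.25 and 4 times the stage 26 mean. TPM is a transcript's share of the RNA in a library, scaled for length and to a fixed sum. An assembly gene is a group of assembled transcripts with a common identifier, and its total is the sum of their TPM. Together the 54 genes held 103 of 220713 transcripts.

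Poly-A RNA of whole wild-type animals was sequenced at 4 stages, with 2 libraries at each. The groups were unfertilized eggs, embryos of 8 cells, embryos at NF stage 26 and tadpoles that swim. The Nieuwkoop and Faber (NF) scale counts stages of the related Xenopus, in which stage 26 embryos are forming a tail bud. No treatment or mutation was given for any group. Nothing in the labels says that replicates are separate clutches, so the spread behind each p-value is that of these libraries and may be technical.

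Frog eggs are loaded with maternal RNA, and the first cleavages run on that store while the embryo's own genes are largely silent. In Xenopus, broad transcription of the embryonic genome begins at the midblastula transition, and genes of differentiating tissues are switched on during and after gastrulation. A gene that is missing from eggs and cleaving embryos but abundant in the tail bud is therefore usually read as an embryonic, or zygotic, gene. Poly-A capture counts only RNA with a poly-A tail, and frog eggs are known to store some maternal RNAs with short tails. The files do not pair the identifiers with gene names or sequences, so no role or tissue is given to any of the 54 genes. They are called here by identifier for a few chosen by rule, and otherwise by rank, with rank 1 for the highest mean over the 4 late libraries. Genes given by rank were picked after their values were seen. In whole embryos, fewer cells of a type and less RNA per cell cannot be told apart.

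For these genes each stage 26 library correlated most with a tadpole library, which bears on every comparison between stage 26 and tadpoles. Across the 54 genes, log2(TPM + 1) in stage 26 replicate 1 correlated with tadpole replicate 2 at r = 0.792 and with its own replicate at r = 0.638. Stage 26 replicate 2 correlated with tadpole replicate 1 at r = 0.696. The tadpole libraries correlated with each other at r = 0.764. Lowest were stage 26 replicate 1 with tadpole replicate 1, at r = 0.537, and stage 26 replicate 2 with tadpole replicate 2, at r = 0.531. Genes are not independent replicates in these values, and the levels of a library share 1 total. Over all 119072 genes with at least 1 TPM in at least 2 libraries, the tested genes, the stage 26 libraries correlated at r = 0.704 and the tadpole libraries at r = 0.747. There stage 26 replicate 1 correlated with tadpole replicate 2 at r = 0.630 and stage 26 replicate 2 with tadpole replicate 1 at r = 0.695. The table gives no read totals, so the depth is unknown. The share of tested genes above 0 ranged from 39.99% in egg replicate 1 to 61.4% in 8-cell replicate 2 among early libraries, and from 80.7% to 85.8% among late ones.

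The 54 genes together went from almost none of the RNA in the early libraries to 1.86% or more of it in each late one. They held 0.000259% and 0.000542% of the TPM in the egg libraries and 0.000383% and 0.000427% in the 8-cell libraries. They held 2.44% and 1.86% in the stage 26 libraries, a mean of 2.15% ± 0.410 (SD, n = 2). In the tadpole libraries they held 2.61% and 2.91%, a mean of 2.76% ± 0.207 (SD, n = 2). The rule set the contrast between early and late. Both tadpole values lay above both stage 26 values, but the rule used these libraries too, and an exact two-sided permutation test of 2 against 2 can give no p below 0.333.

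**Figure D1:**
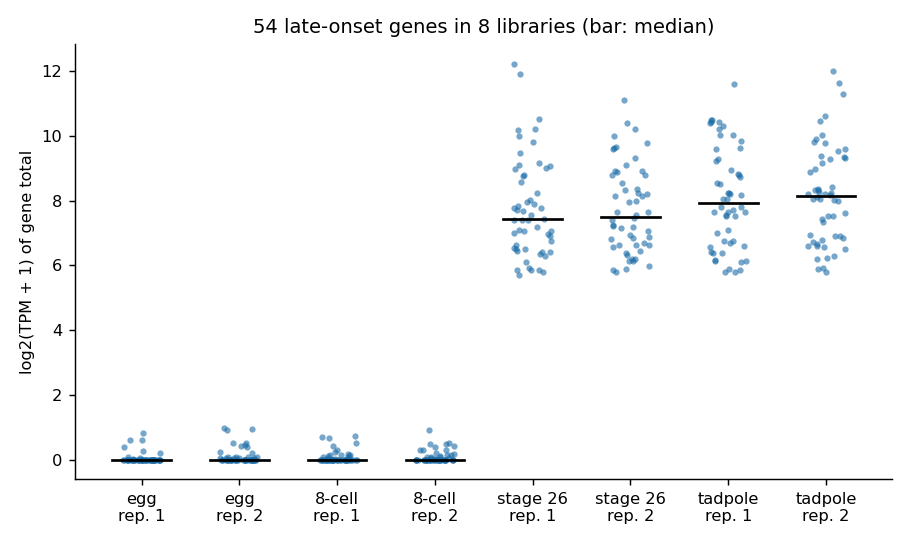
The plot of levels by library shows the total of each of the 54 genes as log2(TPM + 1), 1 point a gene, with a bar at the median of each of the 8 libraries. The medians are 0 in all early libraries and between 7.42 and 8.15 in the late ones, a gap set by the rule.

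Within the late libraries the levels covered a wide range. The median gene total was 171 and 181 TPM in the stage 26 libraries and 243 and 282 TPM in the tadpole libraries. The late means ran from 76.7 to 2759 TPM with a median of 267 TPM. Of the 54 genes, 48 had a late mean of at least 100 TPM, 16 of at least 500 TPM and 5 of at least 1000 TPM. In all 4 late libraries, 24 of the 54 reached 100 TPM. Among the 100 most abundant gene totals of a library, 8 and 3 were from this set in the stage 26 libraries and 9 and 12 in the tadpole libraries. The best placed of them had rank 3 and rank 41 among all genes in stage 26 replicates 1 and 2, and rank 13 and rank 5 in tadpole replicates 1 and 2. The 5 genes of highest late mean carried 28.9% to 48.9% of the set's TPM in a late library.

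The most abundant gene, c140750_g1, was at 4805 and 811 TPM in stage 26 replicates 1 and 2 and at 1275 and 4144 TPM in tadpole replicates 1 and 2. It was listed at 0 in egg replicate 1 and 8-cell replicate 1, at 0.89 TPM in egg replicate 2 and at 0.067 TPM in 8-cell replicate 2. The second, c107263_g1, was at 3868 and 547 TPM at stage 26 and at 1446 and 3193 TPM in tadpoles, and was listed at 0 in all 4 early libraries. Both genes were high in stage 26 replicate 1 and tadpole replicate 2 and low in the other 2 late libraries, so their stages overlapped. The rank 3 gene had the other order, at 1460.0 and 2224 TPM at stage 26 and 3139 and 1424 TPM in tadpoles. The rank 5 gene followed it, with 555 and 1338 TPM at stage 26 and 1375 and 743 TPM in tadpoles. Between the 2 stages none of these 4 genes separated. The rank 4 gene did, at 1188 and 444 TPM at stage 26 and 1359 and 2491 TPM in tadpoles.

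The rank 30 gene was the steadiest of the 54, at 203 and 199.9 TPM at stage 26 and 221 and 185 TPM in tadpoles, with a highest value 1.19 times its lowest. The rank 13 gene was the least steady, at 506 and 97.4 TPM at stage 26 and 449 and 1576 TPM in tadpoles, a span of 16.2 times. Over the set the highest late value was a median of 3.46 times the lowest. It was over 4 times the lowest for 22 genes and under 2 times for 12.

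**Figure D2:**
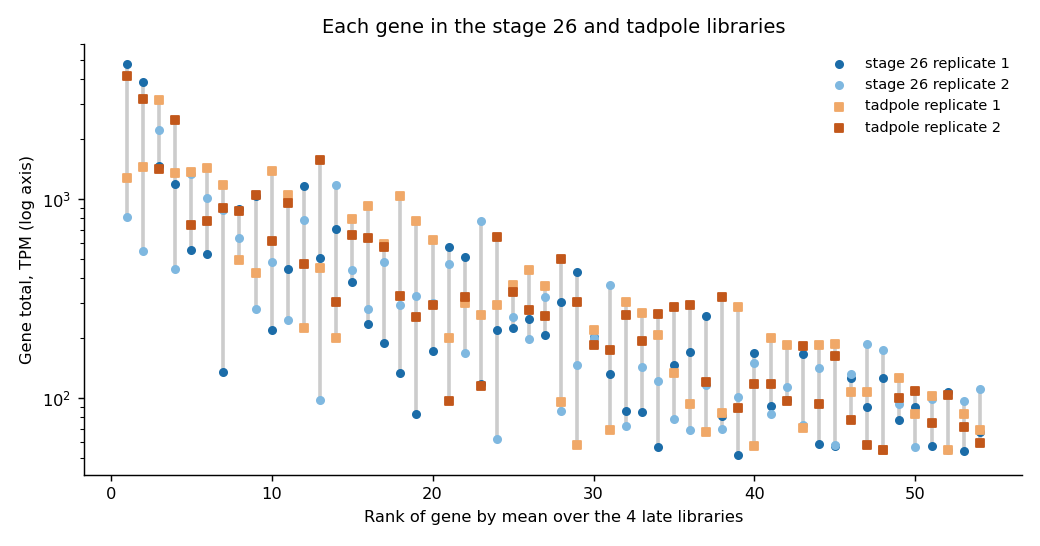
The plot of genes by rank shows the total of each of the 54 genes in TPM (log axis) against its rank by late mean, with circles for the 2 stage 26 libraries, squares for the 2 tadpole libraries and a grey line from lowest to highest. The first 2 genes are highest in stage 26 replicate 1 and next highest in tadpole replicate 2, and the grey lines span 1.19 to 16.2 times.

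Genes lay close to both level limits of the rule on either side. Among genes that met the late conditions, the highest early maxima inside the rule were 0.957, 0.924 and 0.89 TPM, and the nearest outside were 1.143, 1.159 and 1.16 TPM. Among genes that met the other conditions, the lowest late minima inside were 51.7, 54.5 and 54.8 TPM, and the nearest outside were 49.2, 48.6 and 48.4 TPM. The ratio of the tadpole to the stage 26 mean ran inside from 0.266 to 3.56. A further 5 genes met both level limits but not the ratio, with ratios of 0.175, 4.86, 4.95, 5.04 and 7.53.

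In eggs and 8-cell embryos, the only stages measured before stage 26, the rule kept every gene of the set below 1 TPM. Of the 54 genes, 24 were listed at 0 in all 4 early libraries, and 30 had a value above 0 in at least 1. Among the 30, the highest early value was a median of 0.1995 TPM, or 0.0539% of the late mean, and at most 0.777% of it. Egg replicate 1 showed 9 of the 54 genes above 0 (16.7%), egg replicate 2 showed 19 (35.2%), and the 8-cell libraries showed 17 (31.5%) and 21 (38.9%). Egg replicate 1 was also lowest over all tested genes, at 39.99%, against 57.3%, 58.3% and 61.4% in the same order. Its part in the lower count was not tested. A trace was present at both early stages for 17 of the 30 genes, only in 8-cell libraries for 8 and only in egg libraries for 5. Both 8-cell libraries were above 0 for 13 of the 54 genes and both egg libraries for 6. Over all tested genes, 51.7% were above 0 in both 8-cell libraries and 35.9% in both egg libraries.

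Values above 0 in all 4 early libraries were found for 4 genes. The rank 25 gene was at 0.164 TPM in both egg libraries and at 0.428 and 0.334 TPM in the 8-cell libraries. The rank 27 gene was at 0.200 and 0.438 TPM in eggs and at 0.092 and 0.035 TPM at the 8-cell stage. The rank 37 gene was at 0.309 and 0.321 TPM and then 0.235 and 0.222 TPM. The rank 53 gene was at 0.521 and 0.328 TPM and then 0.345 and 0.157 TPM. The 8-cell values lay above both egg values for rank 25 and below both for ranks 27 and 37, and the stages overlapped for rank 53. The highest early value of all 54 genes, 0.957 TPM, was that of the rank 43 gene in egg replicate 2, and this gene was also at 0.669 and 0.422 TPM in the 8-cell libraries. Some high traces stood in 1 library. The rank 33 gene was at 0.924 TPM in egg replicate 2 and the rank 10 gene at 0.879 TPM in 8-cell replicate 2, and both were listed at 0 in the other early libraries.

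Between eggs and 8-cell embryos no gene of the set passed the test, but the rule left this test little to detect. Both 8-cell libraries lay above both egg libraries for 7 of the 54 genes, where 20.5% of tested genes did, and below for 2, where 3.13% did. These shares rest on TPM as deposited. More tested genes were above 0 in the 8-cell libraries, 58.3% and 61.4%, than in the egg libraries, 39.99% and 57.3%. The test was limma on log2(TPM + 1), two-sided, with Benjamini-Hochberg adjustment over the 119072 tested genes. It called 0 of the 54 genes and 0 of all genes (0%), with a smallest adjusted p of 0.212 over all genes and of 1 in the set. At an unadjusted p under 0.05 there were 7612 of all genes (6.39%) and 0 of the 54. A total that stays below 1 TPM cannot differ by more than 1 on this scale, and the fit estimates each gene's spread from all 4 stages, late libraries included. A difference within these traces was therefore not detectable by this test. In the fit to the egg and 8-cell libraries alone, 3 of the 54 and 5919 of all 119072 genes had an unadjusted p under 0.05 (limma). Of either, 0 passed adjustment (limma, smallest adjusted p 0.474).

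To see how the levels held in a library that the choice had not used, the rule was applied with each library left out in turn. The genes chosen were then looked up in the library left out. Without an early library, 94.7% of 57 genes (egg replicate 1), 84.4% of 64 (egg replicate 2), 98.2% of 55 (8-cell replicate 1) and 98.2% of 55 (8-cell replicate 2) were below 1 TPM in it. Egg replicate 2 held the highest exceptions: 10 genes chosen without it were at 1.16 to 19.5 TPM there. The median in the left-out library was 0 each time. In egg replicate 1 that holds for tested genes as well, of which 39.99% were above 0. Without a late library, 72.7% of 66 genes (stage 26 replicate 1), 72.1% of 68 (stage 26 replicate 2), 81.5% of 65 (tadpole replicate 1) and 96.2% of 52 (tadpole replicate 2) reached 50 TPM in it. None of the genes so chosen was under 10 TPM in the left-out late library, and the lowest value was 10.1 TPM. With a late minimum of 30 TPM, 6 of 139, 12 of 147, 5 of 130 and 0 of 104 genes were under 10 TPM, in the same order of libraries. Most genes chosen were thus on the rule's side of the limit in the left-out library, while the exact number of genes depended on it. The other library of the same stage stayed in the choice. For each early library left out, the genes below 1 TPM in it were the 54 of the set, as the rule dictates. Those at 50 TPM or more in a left-out late library were also nearly all of the set. They were 47 of 48 and 49 of 49 for stage 26 replicates 1 and 2, and 50 of 53 and 50 of 50 for tadpole replicates 1 and 2. The shares of all tested genes below 1 TPM early, or at 10 or 50 TPM late, were not computed. The early and the late shares therefore have nothing to be set against.

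**Figure D3:**
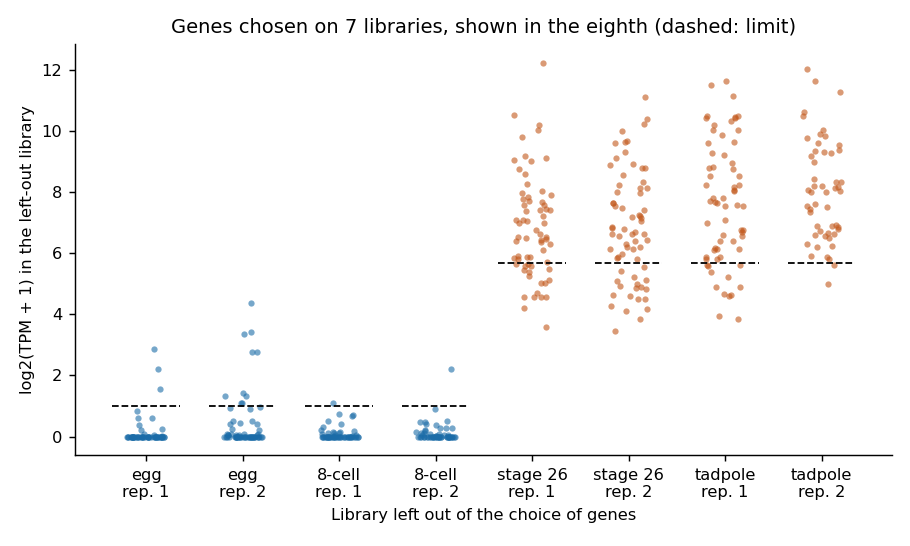
The plot of left-out libraries shows log2(TPM + 1) of the genes chosen on 7 libraries in the library that was left out, 1 point a gene, with a dashed line at the limit of 1 TPM (early, blue) or 50 TPM (late, orange). Points cross the line most often at stage 26, where 72.7% and 72.1% stay above it.

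From stage 26 to tadpoles the set as a whole was somewhat higher, within the 4-fold band that the rule allows. The median difference was 0.42 on the log2(TPM + 1) scale, with quartiles of -0.015 and 1.09, and 0 over all tested genes. It was 0.15 over 1744 genes of the same ratio limit, under 1 TPM early with a late minimum of 5 to under 50 TPM. Over 758 genes with the same late limits that were at 1 TPM or more in an early library, it was -0.12. In the set, the tadpole mean was above the stage 26 mean for 38 genes and below it for 16. It was at least 2 times as high for 15 genes, at most 0.5 times for 6, and in between for 33. Both tadpole libraries lay above both stage 26 libraries for 18 genes, where 20.4% of all tested genes did. They lay below for 6 genes, where 14.9% did, and the libraries overlapped for 30. The rule used these libraries and this ratio, so the counts are a description and no test is given. Single pairs of a tadpole and a stage 26 library gave median differences of 0.30 to 0.52, but these pairs share libraries and are not independent. Within a stage the median difference was 0.12 for stage 26 replicate 2 minus replicate 1. It was -0.21 for tadpole replicate 2 minus replicate 1.

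The largest differences among genes whose stages did not overlap were close to 4-fold, the most that the rule allows. The 5 genes beyond that limit were left out of the set. The gene c113292_g1 was at 219 and 62.2 TPM at stage 26 and at 295 and 646 TPM in tadpoles, a log2 difference of 1.89. The gene c79815_g1 was at 86.5 and 72.6 TPM and then at 303 and 263 TPM, a log2 difference of 1.82. Its stage means were 79.5 ± 9.82 and 283 ± 28.0 TPM (SD, n = 2 each), so its libraries agreed closely within each stage. Both were listed at 0 in every early library.

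In the other direction, c23014_g1 was at 709 and 1182 TPM at stage 26 and at 199.7 and 303 TPM in tadpoles, a log2 difference of -1.89. The gene c25394_g1 was at 572 and 473 TPM and then at 200.002 and 96.7 TPM, also a log2 difference of -1.89. The first was listed at 0 in every early library, and the second was at 0.593 TPM in 8-cell replicate 1 only. Among the other genes with both tadpole libraries lower, the rank 12 gene was at 1169 and 790.2 TPM and then at 225 and 475 TPM. It also had early values, at 0.771 TPM in egg replicate 1 and 0.171 and 0.394 TPM in the 8-cell libraries. Among genes absent or nearly absent early, late differences thus ran both ways.

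Libraries of 1 stage differed widely for many of these genes. The median absolute difference on the log2(TPM + 1) scale was 0.87 between the stage 26 libraries, 0.88 between the tadpole libraries and 0.82 between the stage means. These values are not alike: the last compares means of 2 libraries and is held down by the ratio limit of the rule. The stage 26 libraries were at least 2-fold apart on the log2(TPM + 1) scale for 23 of the 54 genes, or 42.6%, where 41.5% of tested genes were. The tadpole libraries were 2-fold apart for 22 genes, or 40.7%, where 31.5% of tested genes were. Among the 758 late-abundant genes also present early, the shares were 53.0% at stage 26 and 35.1% in tadpoles. For the 1744 genes with a late minimum of 5 to under 50 TPM they were 40.5% and 26.7%. Differences between replicates were ordered across the stages. A gene higher in stage 26 replicate 1 than in replicate 2 tended to be higher in tadpole replicate 2 than in replicate 1. Of the 54 genes, 19 were higher in stage 26 replicate 1 and tadpole replicate 2, and 25 in stage 26 replicate 2 and tadpole replicate 1. The remaining 10 followed neither order. The 2 replicate differences correlated at r = 0.717 across the 54 genes and share no library.

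The same order was present among other genes. Among 758 genes with the same late limits that were at 1 TPM or more in an early library, 86.1% lay in 1 of these 2 orders and r was 0.805. Among 1744 genes under 1 TPM in all early libraries with a late minimum of 5 to under 50 TPM, 75% did and r was 0.566. Over all tested genes 59.1% did, 28.6% were higher in libraries of the same number, and r was 0.273. The rest of the tested genes were tied within at least 1 stage, while the set and the lists above held no ties. These genes share libraries and totals, and no cause of the order was tested. Both differences were at least 2-fold for 9 genes of the set in the first order, 16.7%, where 10.5% of tested genes were, and for 4 genes in the second, 7.41%, where 3.03% were. Among the 758 late-abundant genes also present early the shares were 7.78% and 21.6%.

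The 19 genes of the first order summed to 16125 and 4739 TPM in the stage 26 libraries and to 7072 and 17118 TPM in the tadpole libraries. The 25 genes of the second order summed to 5474 and 10698 TPM and then to 15986 and 9005 TPM. Each group was thus high in 1 library of each stage and low in the other. The 2 groups were formed from these values and are given as a description. In the early libraries, 7 of the 19 and 11 of the 25 were listed at 0 in all early libraries. The median late mean was 247 TPM in the first and 299 TPM in the second, and the median log2 difference between the stages was 0.31 and 0.52.

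**Figure D4:**
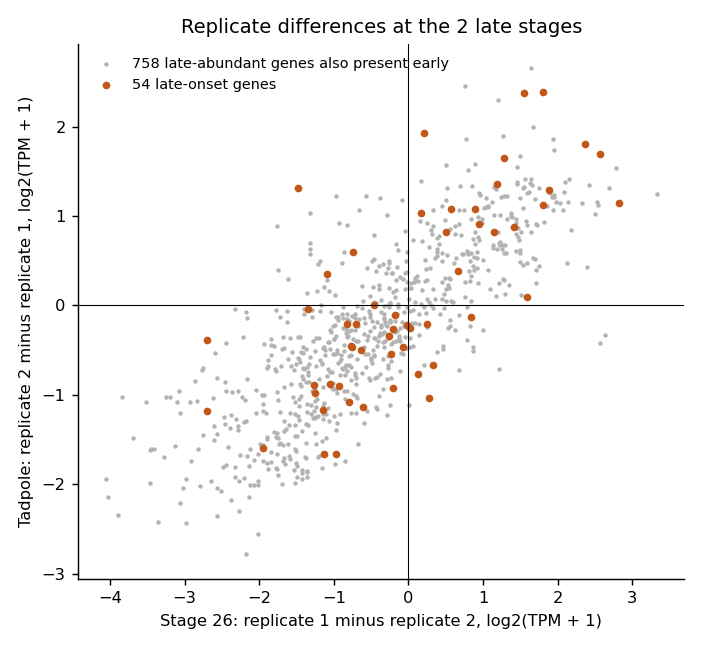
The plot of replicate differences sets stage 26 replicate 1 minus replicate 2 on the x axis against tadpole replicate 2 minus replicate 1 on the y axis, both as log2(TPM + 1), for the 54 genes (orange) and the 758 late-abundant genes also present early (grey). Both sets run from lower left to upper right, with r = 0.717 and r = 0.805.

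The make-up of each gene by transcripts was not used by the rule. Of the 54 genes, 27 had 1 transcript (50%), 14 had 2, 6 had 3, 6 had 4 and 1 had 6. Genes with 1 transcript made up 56.7% of the 758 late-abundant genes also present early, 43.8% of the 1744 lower late genes and 65.9% of tested genes. The identifiers also carry a component number, with which de novo assemblers usually group contigs that share sequence. Of the 54 genes, 12 shared a component with another gene (22.2%), against 32.7% of the 758, 62.4% of the 1744 and 38.8% of tested genes. No 2 of the 54 shared a component with each other. The 12 components held 38 other genes, of which 25 were also under 1 TPM in all early libraries and 23 had a late mean of at least 10 TPM. Reads could be split between such neighbours, so totals of these 12 genes are less certain.

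The 27 genes with 2 or more transcripts mostly kept the same leading transcript. The same transcript was the highest in all 4 late libraries for 19 of the 27 (70.4%), against 83.8% of 328 such genes among the late-abundant ones also present early and 58.7% of 981 among the lower late genes. For 5 of the remaining 8 the stage 26 libraries differed from each other, and for 5 the tadpole libraries did. In 1 gene the libraries of each stage had the same leading transcript and the stages had different ones. The main transcript, the one with the highest mean share of its gene, held a median of 62.1% of the gene total, from 29.2% to 93.3%. The mean shares of the 2 stages were within 5 percentage points of each other for 18 genes and at least 10 points apart for 6.

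No gene passed the test for a change in the main transcript between stage 26 and tadpoles. The test was limma, two-sided, on log2 of the main transcript's TPM + 1 over the TPM + 1 of the gene's other transcripts. It covered 6082 genes with at least 5 TPM in each late library, all 27 included. It called 0 of the 27 and 0 of all (0%), with a smallest adjusted p of 0.208 over all genes and of 1 in the 27. At an unadjusted p under 0.05 there were 287 of all genes (4.72%) and 0 of the 27. Both tadpole libraries lay below both stage 26 libraries for 4 of the 27, where 15.9% of genes did, and above for 0, where 14.4% did.

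Of those 4, c132984_g6 had the largest difference, and its component held 9 genes, so its total is among the less certain ones. Its main transcript held 66.9% and 57.6% of the gene at stage 26 and 43.1% and 48.4% in tadpoles. The log2 difference of the ratio was -0.95 (SE 0.61, adjusted p = 1, limma). For c96588_g1 the shares were 40.7% and 43.8% and then 23.2% and 38.1%, a log2 difference of -0.76 (SE 0.74, adjusted p = 1, limma). For c132984_g6 the stage means, 62.3% and 45.8%, were further apart than libraries of 1 stage. In some other genes, libraries of 1 stage differed by more than that. The main transcript of the rank 36 gene held 66.2% and 65.9% at stage 26 but 2.0% and 74.6% in the tadpole libraries. That of the rank 26 gene, with 6 transcripts, held 0.3% in stage 26 replicate 1 and 48.1%, 45.1% and 23.3% in the other late libraries in order. Over the 27 genes the share differed by a median of 5.53 points between the stage 26 libraries and 5.60 points between the tadpole libraries. Between stage means it differed by 2.00 points. These values are not alike, since the last compares means of 2 libraries. kallisto divides reads that match several transcripts, so shares of near-identical transcripts are estimates. The leading transcript of c132984_g6 and that of c96588_g1 were not the same in all 4 late libraries.

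**Figure D5:**
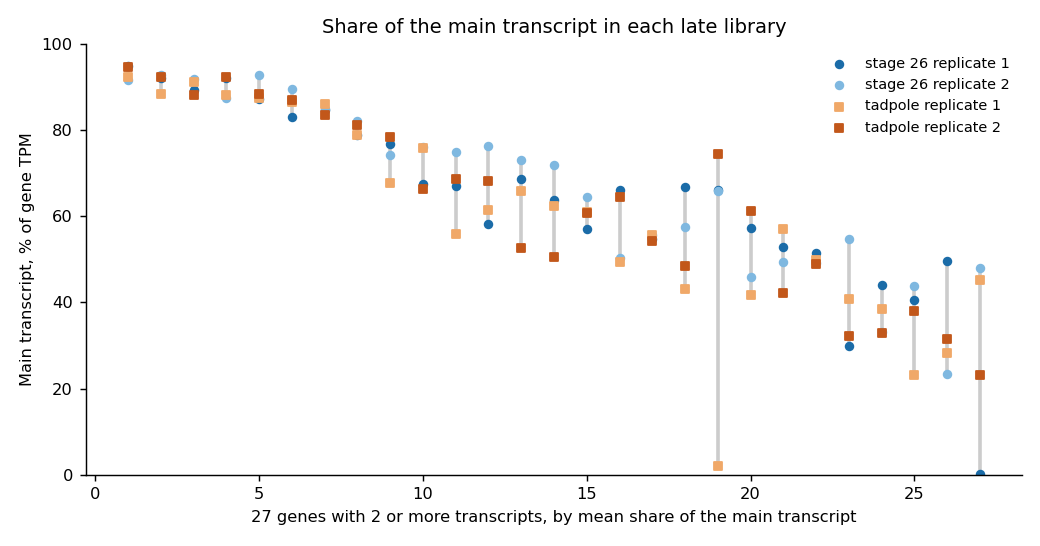
The plot of transcript shares gives the main transcript's share of the gene total (%) in each late library for the 27 genes with 2 or more transcripts, ordered by the mean share, with circles for stage 26, squares for tadpoles and a grey line from lowest to highest. The median span is 11.1 points, and the longest, 72.6 points, rests on 1 tadpole library.

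The early traces of genes with several transcripts did not always sit in the main late transcript. Of 15 such genes with an early value above 0, the main late transcript also held the highest summed early value in 7. The trace lay wholly in that transcript for 3 genes and wholly in other transcripts for 6. These traces were below 1 TPM, where shares of transcripts are uncertain.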

How the data were processed

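The authors deposited TPM, and the submitters' processing notes name kallisto 0.42.4, which assigns reads to transcripts by pseudoalignment. How the transcripts were assembled and filtered is not stated in the labels. Columns were matched to samples by title, and stages and replicate numbers came from the source names. Columns sum to between 991754 and 998506.

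TPM was summed per assembly gene. The set, its lists and its tests were chosen with earlier results of these data known. Changes are on the log2(TPM + 1) scale, which understates those of low genes. limma 3.58.1 in R 4.3.3 was fitted, with a variance trend, to all 8 libraries (gene totals) or the 4 late ones (main transcript), with calls at a Benjamini-Hochberg adjusted p under 0.05. The fits were tested on simulated data with changes larger than the early values of the set allow. The simulated main transcript changes were also larger than those of the named genes. These runs do not measure what the tests can detect in the set. Named genes are the 2 of highest late mean, and the 2 largest differences in each direction among genes whose stages do not overlap. Python 3.11.15, pandas 2.3.3 and matplotlib 3.10.9 were also used. Alternatives covered the limits, pseudocount, filters, scaling, a replicate block and leaving out each library. Marker lists were not applied, since the identifiers carry no names.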

Additional observations from a re-analysis of the deposited data

How the results depend on the processing

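Of 134 alternative values, 113 stayed within the limits set for them and 21 moved. Many of the 113 were counts of calls that stayed at 0. For the 54 genes between eggs and 8-cell embryos the rule made this all but certain, so these do not measure stability. The number of genes passing the rule was 100 with a late minimum of 30 TPM, 24 with 100 TPM and 33 with a ratio within 2. Without 1 library it ranged from 52 to 68. Median-of-ratios scaling gave 51 genes, 45 of them among the 54. Single transcripts in place of gene totals gave 50 genes, 40 of them among the 54. The median difference from stage 26 to tadpoles, 0.42, was 0.54 with median-of-ratios scaling, 0.54 with a late minimum of 100 TPM and 0.25 with a ratio within 2, and 0.40 to 0.53 without 1 late library. The share of TPM at stage 26 and in tadpoles was 1.63% and 2.27% with an early maximum below 0.5 TPM, 4.43% and 5.46% with one below 2 TPM, 1.72% and 2.16% with a late minimum of 100 TPM, and 1.46% and 1.67% with a ratio within 2. It was 1.65% and 2.25% without the 2 genes of highest late mean, and 3.16% in tadpoles with a late minimum of 30 TPM. With the early maximum below 2 TPM, genes chosen without 1 late library reached at most 29676, 7977, 13679 and 32633 TPM in it. The order is stage 26 replicates 1 and 2, then tadpole replicates 1 and 2. Under the main rule these maxima were 4805, 2224, 3139 and 4144 TPM. With a late minimum of 100 TPM, 100% of genes chosen without 8-cell replicate 2 and 84.0% of those chosen without stage 26 replicate 2 were on the rule's side of the limit in it. The cause of these shifts was not tested.

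The main transcript test (limma) called 1 of all genes with a pseudocount of 5 and 1 with a gene total of at least 20 TPM, and 0 of the 27 under every alternative run. Leaving out 1 library left the calls at 0 in both tests. The replicate number as a block also gave 0 calls in both tests, and the samples share only a number. Replicate deviations correlated at r = 0.165 between egg and 8-cell over genes, and at r = -0.178 between stage 26 and tadpoles for the main transcript ratio. A crossed replicate block, chosen after seeing the data, called 0 genes (limma, 383 at an unadjusted p under 0.05).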
